A study of Caenorhabditis elegans with 2 samples.

Results

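Autosomal single-gene promoters are the places where the chromatin signal of ALY-2 peaked next to the 5′ end of 1 protein-coding gene, away from gene 3′ ends and from head-to-head gene pairs. They were chosen from the authors' pooled list of ALY-2 regions on the ce11 genome. A region was a member if its summit, the base with the highest signal, lay on an autosome within 500 bp of a protein-coding 5′ end. It also had to lie more than 500 bp from every protein-coding 3′ end. It could not lie within 500 bp of a 5′ end that faces an opposite-strand 5′ end within 1000 bp. The rule used position only, not the height of the signal. It gave 1438 regions of the 17335 on the pooled list, 14425 of which were autosomal. Of the 1438 regions, 1429 had 1 protein-coding 5′ end within 500 bp and 9 had 2. They lay nearest to 1355 genes, of which 1273 had 1 region, 81 had 2 and 1 had 3.

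The study mapped ALY-2 with ChIP-seq (sequencing of DNA recovered by chromatin immunoprecipitation) in whole third-stage (L3) larvae of Caenorhabditis elegans. All samples formed 1 group with 2 biological replicates, of strain OP217, genotype unc-119(ed3) III; ddIs172, with males and females pooled. The protein carried an eGFP tag from an inserted construct, so the signal is that of the tagged protein, and the sources used here do not name the antibody. No control samples were analysed here, and whole larvae mix all tissues, so no cell type can be assigned to a region. The comparisons are therefore between kinds of region and between the replicates, and regions are not replicates of a condition.

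Aly/REF proteins, of which ALY-2 is 1, are mRNA export adaptors: they join nascent mRNA in the nucleus and hand it to the export receptor at the nuclear pore. In yeast and human cells such adaptors are loaded on transcripts as they are made, through the cap-binding complex, the THO complex and the transcribing polymerase. In C. elegans many annotated 5′ ends are trans-splice sites and not starts of transcription, because a spliced leader replaces the first stretch of the pre-mRNA. A position upstream of an annotated 5′ end can therefore lie within the unspliced transcript.

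The summit base with 50 bp to either side is given first for the 6 highest members on autosomes II to V, to show what the summits of high regions hold; ints-4, which lies between sec-61.G and W01D2.3 in height, is on the remaining autosome and is not shown. Sequences are from RefSeq on WBcel235, the same assembly as ce11, and run 5′ to 3′ on the strand of the nearest gene. Capitals mark matches, on either strand, to any of 8 words searched for. They are TATAAA (the core of the TATA box), GAGAGA (a purine repeat), GCGCGC (a repeat of G and C), CACGTG (the E-box), TGCGTCT (a word searched for by its letters only), TTTTCAG (as at worm 3′ splice sites), GGGCGG (the GC box) and TTTTTTTT (a run of T). The 4 highest sequences hold none of these words.
cdc-48.1 chrII:10563511-10563611, minus strand: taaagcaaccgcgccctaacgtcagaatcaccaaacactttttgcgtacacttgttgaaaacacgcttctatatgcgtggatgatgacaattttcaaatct
cox-5A chrIII:12905128-12905228, plus strand: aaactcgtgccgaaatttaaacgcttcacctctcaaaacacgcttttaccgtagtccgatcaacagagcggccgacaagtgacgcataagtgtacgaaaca
rpl-35 chrIII:7854638-7854738, plus strand: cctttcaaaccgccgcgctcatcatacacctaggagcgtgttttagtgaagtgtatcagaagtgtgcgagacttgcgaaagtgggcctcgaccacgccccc
Y25C1A.8 chrII:3077079-3077179, minus strand: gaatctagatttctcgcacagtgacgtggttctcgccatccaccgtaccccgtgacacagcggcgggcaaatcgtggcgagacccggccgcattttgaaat
sec-61.G chrV:10897331-10897431, minus strand: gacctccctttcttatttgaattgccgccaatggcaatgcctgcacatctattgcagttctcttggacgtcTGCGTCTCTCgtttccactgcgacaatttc
W01D2.3 chrII:14804574-14804674, minus strand: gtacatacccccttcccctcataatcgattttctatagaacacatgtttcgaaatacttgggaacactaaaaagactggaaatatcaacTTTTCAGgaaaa
The next 3 are the highest further members with TTTTCAG, which differed most between members and promoters at the members' median offset, the planned comparison. That difference did not hold against all positions of the rule or in wider windows, as given with the word counts.
C47E8.4 chrV:14685650-14685750, minus strand: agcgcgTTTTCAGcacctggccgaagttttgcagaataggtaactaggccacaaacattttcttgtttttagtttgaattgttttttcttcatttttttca
rpl-32 chrII:9057434-9057534, minus strand: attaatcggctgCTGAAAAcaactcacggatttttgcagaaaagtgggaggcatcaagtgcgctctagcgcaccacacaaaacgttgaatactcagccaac
thoc-5 chrIII:5349484-5349584, minus strand: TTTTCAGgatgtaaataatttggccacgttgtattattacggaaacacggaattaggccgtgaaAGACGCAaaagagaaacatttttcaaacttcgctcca
The last 5 lie on the authors' optimal list and hold GAGAGA (sec-24.1, lin-66 and gcy-33) or TGCGTCT (ntl-11 and ubq-1). They were chosen after their values were seen, the first 3 because GAGAGA differed most under another comparison set.
sec-24.1 chrIV:11566333-11566433, minus strand: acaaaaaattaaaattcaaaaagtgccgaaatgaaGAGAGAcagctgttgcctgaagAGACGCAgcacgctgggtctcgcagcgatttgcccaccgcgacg
lin-66 chrIV:13887679-13887779, plus strand: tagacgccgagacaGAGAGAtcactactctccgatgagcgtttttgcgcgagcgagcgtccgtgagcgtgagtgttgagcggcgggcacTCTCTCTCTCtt
gcy-33 chrV:12002095-12002195, minus strand: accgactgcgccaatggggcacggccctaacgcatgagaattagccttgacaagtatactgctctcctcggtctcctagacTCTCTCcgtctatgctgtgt
ntl-11 chrIV:15471571-15471671, minus strand: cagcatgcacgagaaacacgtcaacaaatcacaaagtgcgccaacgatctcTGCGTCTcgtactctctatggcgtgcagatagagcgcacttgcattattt
ubq-1 chrIII:5940504-5940604, plus strand: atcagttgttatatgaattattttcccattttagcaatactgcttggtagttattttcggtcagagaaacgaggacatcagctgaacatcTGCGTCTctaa
GAGAGA and TGCGTCT can share bases, and they did so in sec-61.G, where their matches form 1 run of capitals.

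A small share of the single-gene promoters reached the authors' optimal list, 368 pooled regions that came from their threshold of reproducibility between replicates. Among members, the entries of that list were exactly those ranked up to 368 by pooled height. Being such an entry and being high in the pooled list are therefore 1 readout. Of the 1438 members 26 overlapped an optimal region by at least 1 base, a share of 1.81% (95% Wilson interval 1.24 to 2.64%), beside 2.9% of all autosomal pooled regions. Wilson intervals here cover counting over regions only. Among the 26 members, 22 were the same entry on both lists. The share was 3.02% (2.74 to 3.33%) in the 12987 other autosomal regions, and under this overlap rule the interval does not overlap that of the members. Of the 392 other autosomal regions that overlapped an optimal region, 296 were the same entry, a smaller part than among the members. Counting identical entries only, the members' share was 1.53% (22 of 1438), beside 296 of the 12987 other autosomal regions. No intervals were computed for such entries in the other regions. The separation of the intervals is therefore shown for overlap by at least 1 base only. The order depended on the window: with 250 bp in place of 500 bp around gene ends, 3.17% (2.24 to 4.47%) of 977 members were optimal and 2.88% (2.61 to 3.17%) of the other autosomal regions, intervals that overlap. With 1000 bp the members' share was 1.40% (0.966 to 2.03%), below the 3.13% (2.84 to 3.45%) of the other regions. With head-to-head pairs defined within 2000 bp it was 1.07% (0.629 to 1.83%), below 3.06% (2.78 to 3.37%). With 500 bp the share was 7.92% (5.93 to 10.5%) in the 543 divergent promoters and 6.79% in the 1457 regions near both a 5′ and a 3′ end. It was 7.5% in the 1013 convergent 3′ ends and 3.73% in the 1660 isolated 3′ ends. The members' share lay nearer to that of the 8314 regions at neither end, which was 1.35% (1.12 to 1.62%). With 1 group and no control there was no test of these differences.

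**Figure D1:**
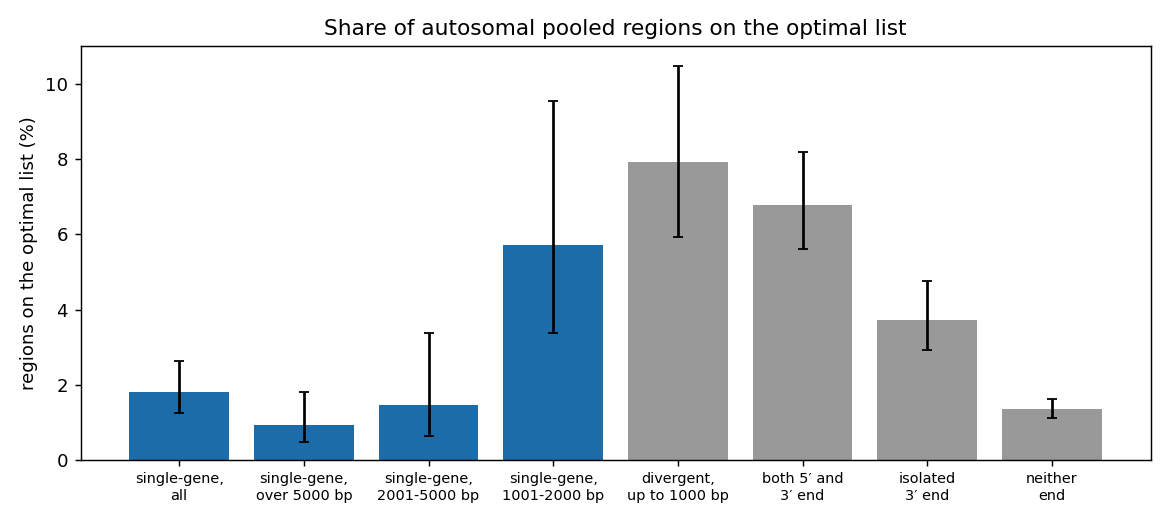
Share of autosomal pooled regions that overlap the optimal list, in percent, with 95% Wilson intervals as bars. Blue bars show single-gene promoters, all and split by the distance in bp to the closest opposite-strand 5′ end upstream, whether or not other genes lay between. Grey bars show other classes. All members stand at 1.81% and the divergent promoters at 7.92%.

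The height of a region, the signal value the authors deposited, varied much more within the members than between classes. Members ranged from 14.2 to 156.9, with a median of 17.9 and quartiles of 15.7 and 21.8. The median was 18.2 in the other autosomal regions and 19.5 in the divergent promoters. The scaling of heights is not stated in those sources, so they serve only to rank regions within a list.

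The optimal share of members varied with the distance from the nearest gene's 5′ end to the next head-to-head 5′ end, a split added after the data were seen. That end was the closest opposite-strand 5′ end upstream, whether or not other genes lay between, so the distance is not the length of a shared intergenic space. Of the 227 members with a head-to-head 5′ end over 1000 and up to 2000 bp away, 13 (5.73%, 3.38 to 9.55%) were on the optimal list. Of the 341 members at over 2000 and up to 5000 bp 5 (1.47%, 0.628 to 3.39%) were on it, and of the 867 members beyond 5000 bp 8 (0.923%, 0.468 to 1.81%). For the other 3 members no such 5′ end was found. The interval of the nearest group overlaps that of the divergent promoters and not that of the most distant group, and it overlaps slightly with the middle one. The share of summits upstream of the 5′ end was 68.7% in the nearest, 59.2% in the middle and 54.3% in the most distant group. The nearest group held cdc-48.1, Y25C1A.8, sec-61.G, ints-4, W01D2.3, lin-9, icd-1, ntl-11, gcy-33, T26E3.4, apb-1, picc-1 and nfm-1.

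The same split was made in each replicate's own list, with its 368 highest regions in place of the optimal list. In replicate 2 the shares were 3.78% in the nearest, 0.858% in the middle and 0.563% in the most distant group. In replicate 1 they were 1.98%, 0.470% and 0.751% in the same order. The nearest group had the highest share in both replicates, and the order of the other groups differed between them. In replicate 2 the interval of the nearest group (2.22 to 6.36%) did not overlap that of the most distant one (0.286 to 1.11%). In replicate 1 the interval of the nearest group (1.00 to 3.85%) overlapped those of the middle (0.160 to 1.37%) and the most distant group (0.430 to 1.31%).

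The 3 highest members stood well above the rest in the pooled list, and in each replicate they were the highest members apart from wwp-1 in replicate 1. The highest member lay 154 bp upstream of cdc-48.1, which encodes p97, an ATPase that extracts ubiquitinated proteins (chromosome II, 10563493 to 10563660), with a height of 156.9, 68.8 in replicate 1 and 86.6 in replicate 2. It ranked 4 of all pooled regions, and its summit lay 497 bp from the snoRNA gene C06A1.9. The second lay 313 bp upstream of cox-5A, a subunit of cytochrome c oxidase (chromosome III, 12904980 to 12905375), with 125.8, 59.5 in replicate 1 and 65.4 in replicate 2. The third lay 446 bp upstream of rpl-35, a large-subunit ribosomal protein (chromosome III, 7854490 to 7854885), with 117.3, 58.3 in replicate 1 and 54.9 in replicate 2. In the pooled list these lay clear of the next member, Y25C1A.8 at 75.7 (34.8 in replicate 1, 40.3 in replicate 2).

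Members of rank 4 to 22 among the single-gene promoters had pooled heights from 43.6 to 75.7. All were on the optimal list, as follows from their height, since its entries among members were those of pooled rank up to 368. Their heights ran from 9.89 to 44 in replicate 1 and from 14.6 to 46.1 in replicate 2. They include genes of protein export and sorting: sec-61.G, a subunit of the translocon that moves proteins into the endoplasmic reticulum (73.4), sec-24.1 of the COPII vesicle coat (60.3) and apb-1, a clathrin adaptor (44.7). The gene icd-1, a subunit of the complex that binds nascent chains at the ribosome, had 58.5. Genes of RNA synthesis and decay were ints-4, an Integrator subunit (71.6), rpb-11 of RNA polymerase II (57.7) and ntl-11 of the CCR4-NOT complex (53.3). Others were sco-1, which delivers copper to cytochrome c oxidase (54.4), imb-3, an importin (46.6), lin-66, a heterochronic gene (51), and gcy-33, a soluble guanylate cyclase (45.8). The rest, besides Y25C1A.8, lin-9, rpl-24.2 and ubq-1, were W01D2.3 (61.3), scpl-3 (61.1), T26E3.4 (45.8) and K04B12.2 (43.6), and the next members, pde-12, K05F1.6 and Y94H6A.3, were not on the optimal list at 43.6, 43.5 and 42.7.

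The replicates ranked several of these regions very differently. For lin-9, a subunit of the DREAM complex that represses transcription, the height was 14.7 in replicate 1 (rank 2989 of that list) and 44 in replicate 2 (rank 62). For rpl-24.2 it was 9.89 in replicate 1 (rank 12864) and 46.1 in replicate 2 (rank 55). For ubq-1, which encodes polyubiquitin, it was 27.8 in replicate 1 (rank 172) and 14.6 in replicate 2 (rank 3322), with the summit in an intron 300 bp downstream of the 5′ end.

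Of the optimal members 4 were not themselves entries of the optimal list and only overlapped one. They are counted among the 26 optimal members in the values for side, location, G and C content and words below. For wwp-1, a ubiquitin ligase gene, the pooled height was 19.8, with 63.6 in replicate 1 (rank 7) and 18.1 in replicate 2 (rank 1520). The summit at wwp-1 lay 502 bp from a protein-coding 3′ end, just outside the limit of 500 bp. The others were nfm-1 (18.4), picc-1 (21.6, with a region in replicate 2 only) and a second region of rpl-24.2 (31.0). Their names were chosen after their values were seen. The second region of rpl-24.2 overlapped the first, and both summits lay in the same replicate regions (9.89 in replicate 1, 46.1 in replicate 2). The pair was therefore not separate in the replicates, although each region counts as an optimal member.

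Many members were found in 1 replicate only. The summit lay in a region of replicate 1's list for 991 members (68.9%), of replicate 2's list for 953 (66.3%) and of both for 569 (39.6%, 37.1 to 42.1%), beside 41.4% of all autosomal regions, and 63 were in neither. The share in both was 41.6% in the other autosomal regions and 49.0% in the divergent promoters. It followed height: over 4 equal groups of members by height, from the highest down, it was 74.7%, 45%, 27.6% and 10.9%. The pooled heights were made from both replicates, so this order is not independent of them. Among the 368 highest regions of each replicate were 20 members in replicate 1 (1.39%), 20 in replicate 2 (1.39%) and 8 in both (0.556%), the last beside 0.887% of all autosomal regions. Of the other autosomal regions 2.46% were there in replicate 1, 2.59% in replicate 2 and 0.924% in both.

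Heights in the replicates were only weakly related. Over the 569 members in both lists Spearman's rho was 0.227 and Pearson's r 0.560, as a description across regions that share 2 libraries. Without the 25 highest members rho was 0.137 and r was 0.153 (n = 544), a subset chosen by height, which narrows the range. In the divergent promoters rho was 0.438 (n = 266) and in the other autosomal regions 0.276.

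**Figure D2:**
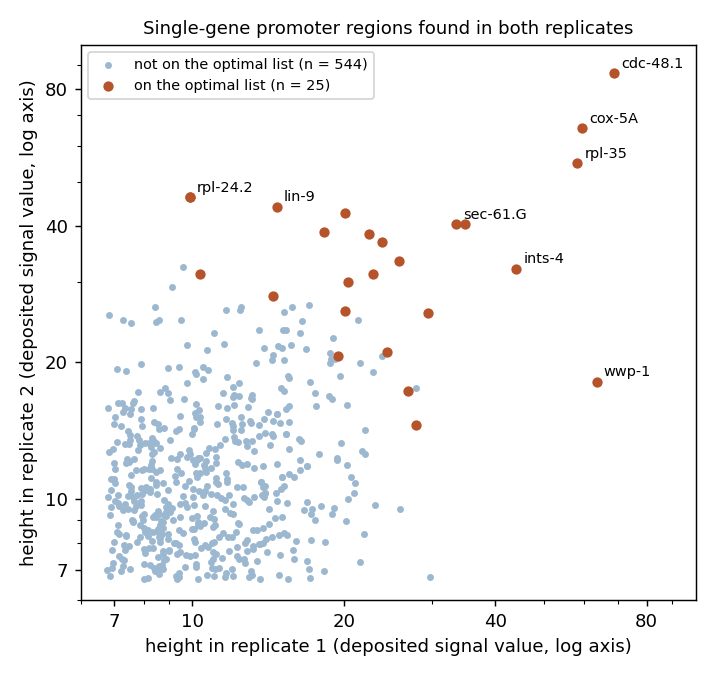
Height in replicate 1 against height in replicate 2, both as deposited signal values on log axes, for single-gene promoters found in both replicates; orange points are on the optimal list. The points at the top right are cdc-48.1, cox-5A and rpl-35, while rpl-24.2, lin-9 and wwp-1 are high in 1 replicate only.

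Summits lay upstream of the 5′ end more often than downstream. Upstream summits numbered 830 (57.7%, 55.1 to 60.2%), and the median summit lay 74.5 bp upstream. The rule fixed the distance but not the side, and the upstream side made up 47.1% of the 9597780 bases that the rule admits, a comparison added after the data were seen. Per megabase of admitted bases there were 183 members upstream and 120 at or downstream of the 5′ end. Members were densest 301 to 400 bp upstream, at 212 per megabase, and sparsest 200 to 299 bp downstream, at 99.7. Of the 26 optimal members 22 (84.6%, 66.5 to 93.9%) were upstream, which is 4.86 per megabase upstream and 0.788 downstream. The median over all 26 lay 174.5 bp upstream, and over the 22 upstream ones 213.5 bp. The upstream share was 61.7%, 60%, 56.3% and 52.9% from the highest to the lowest of the 4 height groups. In the divergent promoters it was 62.1%, with a median of 57 bp upstream. The excess upstream depended on the window: with 250 bp in place of 500 bp, 52.5% of 977 members were upstream. The share of admitted bases upstream was not counted for that window.

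**Figure D3:**
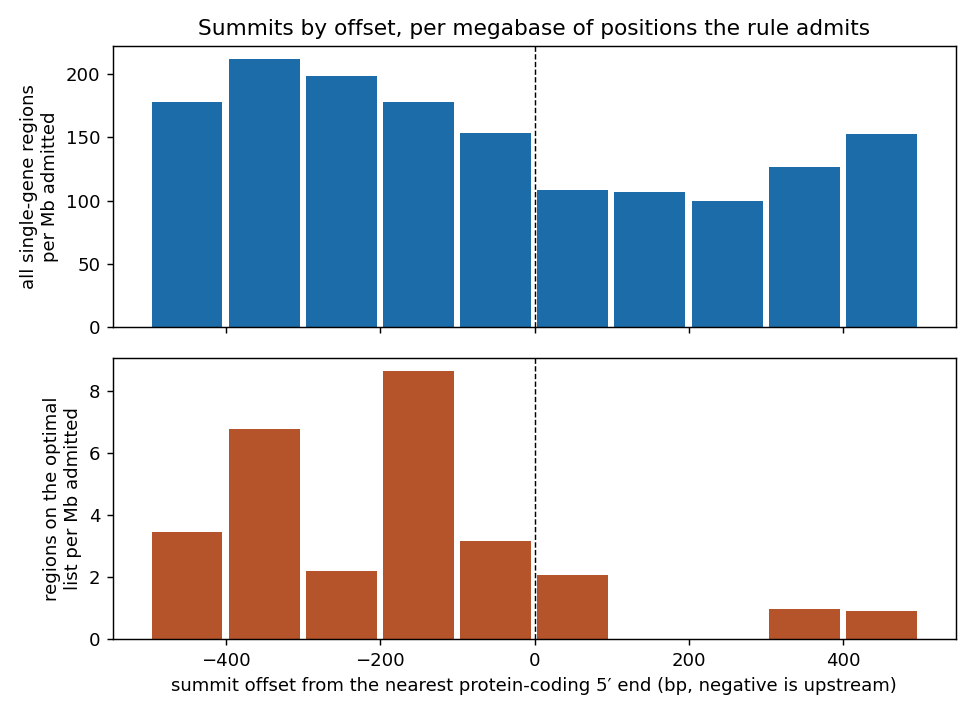
Number of single-gene promoter summits per megabase of admitted positions, in 100 bp bins of the offset from the nearest 5′ end, for all members (top) and for those on the optimal list (bottom). All members are densest from 400 to 301 bp upstream, and the optimal ones are densest in the bin that starts 200 bp upstream.

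Of all members 756 lay between genes, 407 in introns and 275 in exons. The 608 summits at or downstream of the 5′ end were all inside their own gene, and 74 upstream summits lay in the body of another gene. Among the optimal members 21 lay between genes, 3 in introns and 2 in exons. Those in exons were ints-4, 43 bp downstream of its 5′ end, and the second region of rpl-24.2, 62 bp downstream.

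At the edge of the rule, the 140 members over 450 and up to 500 bp from the 5′ end had a median height of 17.6 and 1 optimal region. The 156 otherwise similar regions just outside, over 500 and up to 550 bp away, had a median of 18.4 and 4 optimal regions.

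Most genes without a close head-to-head neighbour had no member. Of the 13864 autosomal protein-coding genes without a head-to-head 5′ end within 1000 bp, called eligible here, 1364 (9.84%, 9.35 to 10.3%) had a member within 500 bp. An optimal member was present at 25 of them (0.18%). Of the 3378 genes with a head-to-head 5′ end within 1000 bp 23.9% had a divergent promoter region and 2.01% an optimal one. A divergent region can count for both genes of a pair: the 543 regions reached 806 genes, while the 1438 members reached 1364. For eligible genes with a 3′ end near their 5′ end, the rule also admits fewer positions. The shares were not adjusted for either point, here or in the gene groups. Counting regions of any class within 500 bp, 18.9% of eligible and 25.6% of head-to-head genes had a region, and 0.743% of eligible and 2.16% of head-to-head genes an optimal one. By chromosome the share of eligible genes with a member ran from 8.58% on V and 9.74% on II to 9.87% on III, 10.9% on IV and 11% on I.

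Among 27 gene groups 5 had shares whose intervals lay above that of all eligible genes, though the groups are small and the intervals wide. Of 32 eligible cytosolic ribosomal protein genes 8 had a member (25%, 13.3 to 42.1%), at a median height of 34.3, and 2 of these were optimal (rpl-35 and rpl-24.2). The others named are ubl-1, which encodes a ubiquitin fused to a small-subunit protein (36.8), and rpl-29 (35), neither optimal. Actin and tubulin genes had a member in 5 of 13 (act-5 29.2 and act-1 27.5), ubiquitin conjugation genes in 6 of 20 (ubq-1 43.8, optimal) and nuclear pore genes in 4 of 14 (npp-8 41.6 and npp-19 30.1). For genes of the tricarboxylic acid cycle it was 4 of 11, led by cts-1, citrate synthase, at 32.9. The lower bounds of these 5 intervals, 13.3%, 17.7%, 14.5%, 11.7% and 15.2%, lay above the 9.84% of all eligible genes.

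The intervals of other groups included the 9.84% of all eligible genes, except that of the chemoreceptors. Chaperone genes had a member in 6 of 33, led by hsp-1, an Hsp70 chaperone, at 41.7, and aminoacyl-tRNA synthetase genes in 4 of 20. Translation factors had 1 of 17, splicing and hnRNP genes 2 of 28, and proteasome and vacuolar ATPase genes 1 of 12 each, so genes used in all cells lay on both sides of the 9.84%. Respiratory chain genes had 3 of 31, with cox-5A optimal and cox-5B at 39.5, and genes of RNA polymerase II and mediator 4 of 36, with rpb-11 optimal. Among the mRNA export genes 2 of 9 eligible had a member, thoc-5 of the THO complex at 31.9 (12.4 in replicate 1, 18 in replicate 2) and aly-1, a paralog of aly-2, at 14.3 (13 in replicate 1 and no region in replicate 2).

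Gene groups tied to certain cell types or stages also lay on both sides. Chemoreceptor genes had 83 of 1186 (7.0%, 5.68 to 8.59%), an interval below that of all eligible genes. Cuticle collagens had 17 of 125, neuropeptides 13 of 96, nuclear hormone receptors 25 of 229 and homeobox genes 4 of 55. Neuron markers had 4 of 27, muscle markers 3 of 22 and intestine markers 2 of 15, among them act-5, which is also on the actin list. None of these groups held an optimal member, beside 0.18% of all eligible genes, and of the 27 groups 23 held none. No member lay at 24 germline genes or at 14 epidermis markers, counts that allow shares of up to 12.5% and 21.4% (3 counts of the total; the Wilson upper limits are 13.8% and 21.5%).

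**Figure D4:**
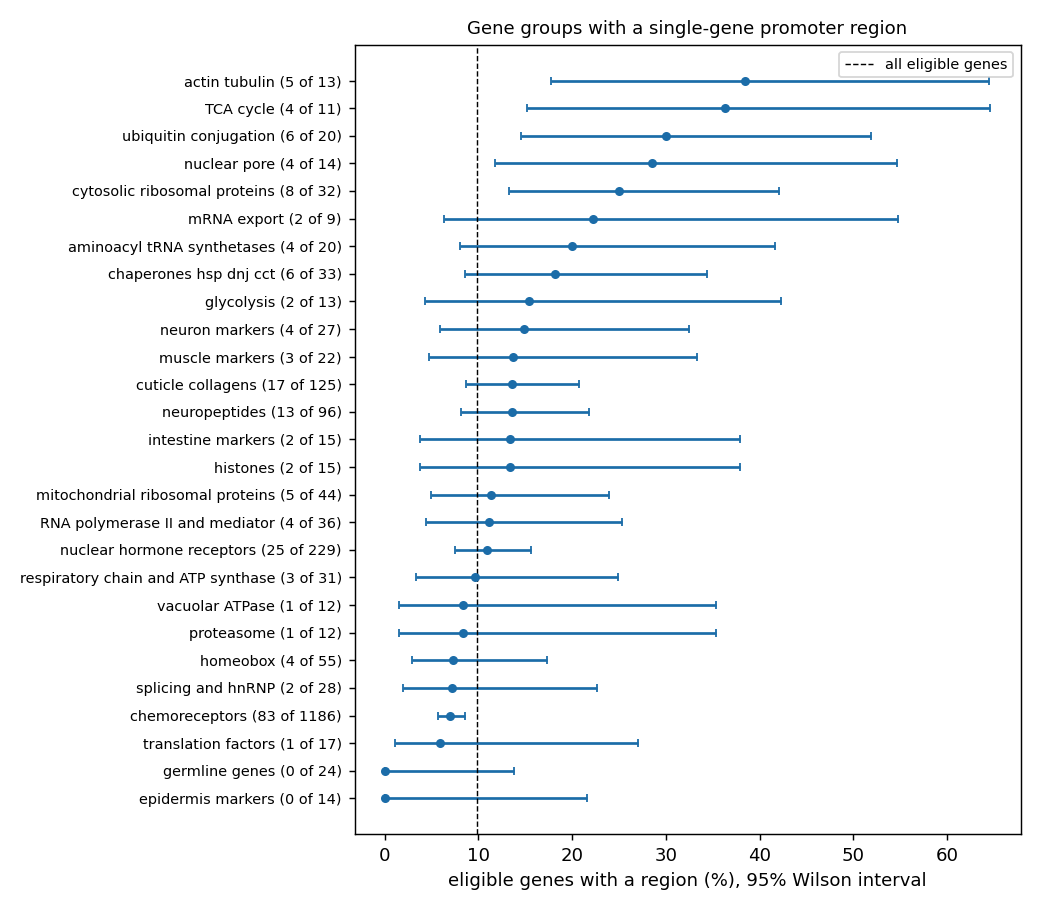
Share of eligible genes with a single-gene promoter region, in percent with 95% Wilson intervals, for 27 gene groups with their counts; the dashed line is the 9.84% of all eligible genes. Actin and tubulin genes lead at 5 of 13, and the chemoreceptors lie at 83 of 1186.

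Optimal members were richer in G and C than members as a whole. The summit base with 50 bp to either side had a mean G and C content of 46.3% ± 8.44 (SD, n = 26) in optimal members and of 34.1% ± 9.13 (SD, n = 1438) in all members. It was 33.6% in the other autosomal regions, 36.9% in divergent promoters, and 34.1% in promoters of eligible genes at the members' median offset. The optimal values ran from 22.8% at apb-1 to 58.4% at lin-9 and lin-66, so not all were high. The content of the other optimal regions was not measured, so the high mean cannot be called particular to single-gene promoters. Over the 4 height groups, from highest to lowest, the means were 36.7%, 34%, 33.2% and 32.5%. In the windows 300 bp to either side of members it was 35.1%.

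**Figure D5:**
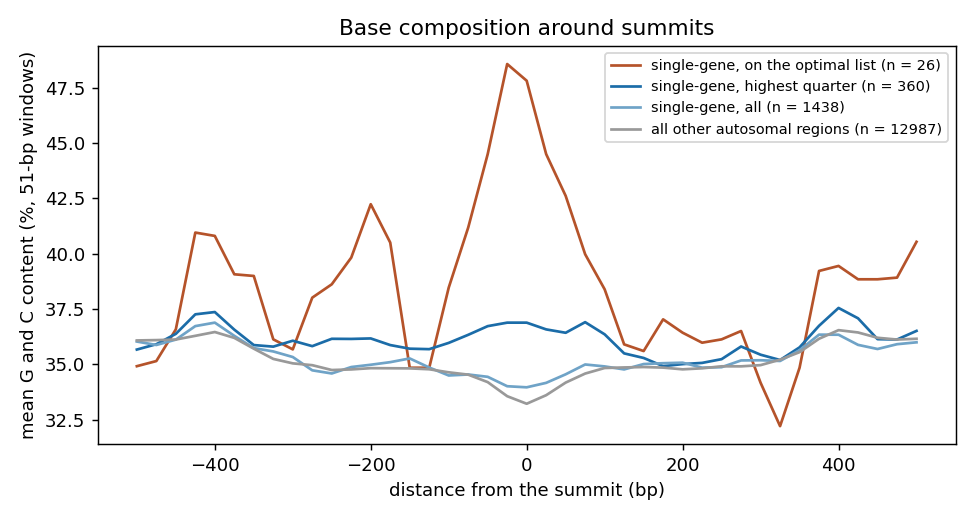
Mean G and C content, in percent of 51 bp windows, against distance from the summit in bp along the genome's plus strand. Optimal members reach 48.6% within 25 bp of the summit (n = 26), while all members lie at 34% there (n = 1438).

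Word counts depended on what the members were compared with. Promoters of eligible genes at the members' median offset, 75 bp upstream (9415 windows), were the planned set. All positions the rule admits, at a step of 50 bp (191763 windows), were added after the first set's results were seen. TTTTCAG was in 11.1% of members, 7.5% of the promoters at the median offset and 11.1% of all positions. TATAAA was in 14.3% of members, 16.5% of those promoters and 12% of all positions. GAGAGA was in 8.76%, 10.3% and 5.90% in the same order. In windows with 100 bp to either side of the summit TTTTCAG was in 20.4% of members and 26.5% of the promoters at the median offset, the opposite order. The sign of the difference reversed between the sets for these words and for GGGCGG and TTTTTTTT, 5 of the 8, so no direction is given for them.

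For the other 3 words the sign was the same under both sets. GCGCGC was in 1.74% of members, 0.903% of the promoters at the median offset and 0.694% of all positions. CACGTG was in 1.74%, 2.87% and 1.88%, and TGCGTCT in 2.09%, 2.05% and 1.18%, the first of these differences for TGCGTCT being close to 0. In divergent promoters GCGCGC was in 5.16%, CACGTG in 1.29% and TGCGTCT in 4.05%. In the other autosomal regions these shares were 1.09%, 1.39% and 1.47%. GCGCGC was thus more frequent in divergent promoters than in members. Among the 26 optimal members 7 held GAGAGA (26.9%, 13.7 to 46.1%), 4 TGCGTCT (15.4%, 6.15 to 33.5%), and none TATAAA, or GGGCGG, or TTTTTTTT. Words were not counted in the other optimal regions, so these shares cannot be called particular to single-gene promoters. A count of 0 of 26 allows a share of up to 11.5%, and with 100 bp to either side of the summit TATAAA was in 2 of the 26, TTTTTTTT in 2 and GGGCGG in 1. From the highest to the lowest of the 4 height groups TGCGTCT was in 4.44%, 1.67%, 1.11% and 1.11% of members, and GAGAGA in 11.7%, 10%, 7.52% and 5.85%. A match is a description of these windows and not a binding site.

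Noncoding genes near the summits were counted because a region at a coding promoter can also sit beside one. A tRNA gene lay within 500 bp of 23 members (1.60%, 1.07 to 2.39%), against 0.816% of the other autosomal regions and 0.184% of divergent promoters. For gcy-33 it was 31 bp from the summit, and at nfm-1 the summit lay inside one; these were the optimal members among the 23. Some of the 23 were overlapping regions near the same tRNA gene, so they are not all separate places. A snoRNA gene lay within 500 bp of 21 members (1.46%) and 1.24% of the other regions, and a piRNA gene of 75 (5.22%) and 5.84%. A gene of the ncRNA biotype lay near 120 members (8.34%) and 7.41% of the other regions, and near 7 of the 26 optimal members (26.9%) and 18.4% of the other optimal regions. Whether these genes contribute to the signal at the coding 5′ ends was not tested.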

How the data were processed

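ChIP-seq of eGFP-tagged ALY-2 was performed in 2 biological replicates, per the labels, with library fragments of 150 to 350 bp. The authors deposited region lists for each replicate (30000 and 26751 regions in replicates 1 and 2), for the pooled replicates (17335) and an optimal list of 368. The deposited signal value of each region was used as its height. The sources used here give no aligner, peak caller, control or scaling, no read counts were used, and depth is therefore unknown; the intervals cover counting over regions only. A replicate held a member if a region of its list contained the pooled summit.

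Genes were those of Ensembl release 115, and sequence that of RefSeq, both on WBcel235. Lists on ce10 were not used. Members, gene lists, words and comparisons were chosen with earlier results of these data known. Named genes are those nearest to the 25 highest members and, in each gene list, the 4 eligible genes or fewer with the highest regions, and those whose summit sequence is shown for holding the word that differed most; other names are marked as chosen after their values were seen. No test was made, as regions are not replicates and 1 group was measured. Scripts ran in Python 3.11.15 with pandas 2.3.3, numpy 2.4.6, scipy 1.17.1 and matplotlib 3.10.9, and were checked on simulated data. Alternatives changed the windows, the head-to-head distance, the overlap rules, the optimal list, the summit window and the replicate.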

Additional observations from a re-analysis of the deposited data

How the results depend on the processing

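Window width set several values. With 250 bp in place of 500 bp, 3.17% of members were optimal (above the 2.88% of the other regions), 52.5% were upstream, the median height was 18.8, 43.6% were in both replicates and 6.90% of eligible genes had a member; with 1000 bp the last was 12.6%. With 250 bp to a noncoding gene, the piRNA share was 3.27%. With head-to-head pairs defined within 2000 bp, the optimal share was 1.07%, beside 3.06% of the other autosomal regions and 7.26% of divergent promoters. Of eligible genes 0.0996% had an optimal member under that setting. Without either replicate, members came from the other one's own list, and its 368 highest regions replaced the optimal list. Such members numbered 2351 in replicate 2 and 2642 in replicate 1. Of these, 1.11% and 0.871% were among the highest, beside 2.08% and 1.76% of the other autosomal regions and 4.47% and 3.41% of divergent promoters. Upstream were 53.4 to 55.2%, and the median height was 9.15 to 9.19 on that replicate's scale. Of eligible genes 15.5 to 17.7% had a member and 0.144 to 0.173% one among the highest. Requiring replicate summits within 100 bp left 27.7% in both. Without the 25 highest members Spearman's rho was 0.137.

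With 100 bp in place of 50 bp to either side of the summit, by construction, words were more frequent: TATAAA 26.4%, GAGAGA 15.5%, GCGCGC 3.06%, CACGTG 2.92%, TGCGTCT 4.03%, TTTTCAG 20.4%, GGGCGG 5.29% and TTTTTTTT 25.6%. The difference of members minus promoters, in percentage points, was of the opposite sign against all admitted positions, a set added after seeing the data, for TATAAA (2.31, against -2.20 at the median offset), GAGAGA (2.86, -1.58), TTTTCAG (-0.082, 3.56), GGGCGG (0.44, -2.29) and TTTTTTTT (1.52, -1.89); in the wider windows, at the median offset, it was -6.06 for TTTTCAG and 0.39 for TTTTTTTT; the cause was not tested. The higher-ranked part of the optimal list, identical entries only, overlap of at least 50% of both regions, and keeping the highest of overlapping regions moved no value of the members beyond its interval. Intervals for the other regions were not computed under these settings. No paired analysis was possible because the samples form 1 group. Unknown depth limits all values.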
